A study of Mus musculus with 8 samples.

Results

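The glycolytic enzyme mRNAs Hk2, Gpi1, Aldoa, Tpi1, Gapdh, Pgk1, Pgam1, Eno1, Pkm, and Ldha were followed through a RIP-seq experiment on the translation initiation factor eIF4A2. In RIP-seq, a tagged protein is pulled down by its tag, and the RNA that comes with it is sequenced next to input RNA of the same cells. Members were the rows of the count table whose Ensembl identifier carries 1 of these 10 symbols, out of 52550 gene rows. Each symbol gave 1 row with counts, and a second annotated Aldoa locus was at 0 in every library. Of the 10754 genes with a CPM, the count of a gene scaled to the reads on all genes of its library, of at least 1 in all 4 inputs, 9 were members. Pgk1 did not pass this filter.

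All cells are labelled as mouse Eif4a2 KO ESCs, so both arms carry the knockout. One arm carried an empty vector (EV), and the other re-expressed Flag-eIF4A2, in the paper the full-length isoform. Cells grew in ES-DMEM with 2i and LIF (1.5 µM CHIR99021, 0.5 µM PD0325901, and 10 ng/ml LIF), and the precipitation used 5 µg of anti-Flag antibody for 3 h at 4 °C. This gave 4 groups of 2 libraries: input EV, input Flag-eIF4A2, RIP EV, and RIP Flag-eIF4A2. The paper describes re-expression from a transposon vector in clonal lines. A legend in its supplement has clones standing as replicates of each eIF4A2 isoform. Whether the EV libraries also come from separate clones is not given there. If they do not, the p-values measure only the spread between these samples, which may be technical. The second RIP Flag-eIF4A2 library carries the name Eif4a3 in 1 label field and Eif4a2 in its title, and the title was followed.

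Glycolysis splits glucose into pyruvate in the cytosol. Its first steps spend ATP to phosphorylate and cleave the sugar, the later steps regain ATP and NADH, and lactate dehydrogenase turns pyruvate into lactate while restoring NAD+. Pluripotent stem cells are known for a high glycolytic flux. eIF4A2 is a DEAD-box RNA helicase and a paralog of eIF4A1, the helicase of the eIF4F complex that prepares mRNAs for translation.

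Libraries held between 2044853 (RIP EV replicate 1) and 11206420 (RIP Flag-eIF4A2 replicate 1) reads on genes. The RIP EV pair stood apart: its biological coefficient of variation was 171%, against 23.1% to 30.1% in the other groups. Uniquely aligned reads outside genes made up 45.8% and 29.75% of all reads in RIP EV. In RIP Flag-eIF4A2 they made up 3.30% and 4.13%, and in the inputs 8.58% to 17.6%. Eif4a2 itself was counted in every library, at 53.8 and 94.3 CPM in input EV and at 86.8 and 69.1 CPM in input Flag-eIF4A2. The 2 guides listed for the knockout of Eif4a2 lie between positions 23110095 and 23112540 of chromosome 16 (GRCm38), and the annotated gene runs on for 1596 bases past them. Tags from that end lie outside the part between the guides and do not check the labels. The 10 pluripotency markers summed to 2414 to 3490 CPM over the inputs, with Esrrb (368 to 616 CPM), Sox2 (221 to 317 CPM), and Nanog (182 to 238 CPM) high and Pou5f1 low (mean 14.4 CPM without and 10.8 CPM with Flag-eIF4A2). All CPM count only reads with a single best place in the genome. How unique the ends of the marker mRNAs are is not given, so the low CPM of Pou5f1 need not mean little mRNA. The 5 fibroblast markers together reached at most 6.87 CPM in any library and the 4 endoderm markers at most 1.61 CPM. The 3 trophoblast markers summed to 158.5 to 240.6 CPM in the inputs, nearly all of it Tfap2c (mean 198 and 224 CPM), while Cdx2 and Elf5 had means of at most 1.73 CPM. Cell number and RNA per cell cannot be told apart in such bulk libraries.

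Each library was built from tags near the 3′ end of polyadenylated RNA, and only reads with a single best place in the genome were counted. A tag of 50 bases is therefore lost when its sequence also lies elsewhere. Glycolytic genes are known for processed pseudogenes, which are reverse-transcribed mRNAs reinserted into the genome. The sequences below show the last coding bases of Gapdh and Eno1, which lie within the last 500 bases of the transcript, beside annotated copies (GRCm38, read 5′ to 3′ on the gene's strand). Capitals mark bases that differ from the functional gene.
Gapdh (chr6:125162032-125162081, minus strand, exon 7 of 7): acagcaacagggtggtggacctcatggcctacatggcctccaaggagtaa
Gm10359 (chr5:105862701-105862750, minus strand): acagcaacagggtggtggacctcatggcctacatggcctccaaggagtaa
Gm8330 (chr10:13890646-13890695, minus strand): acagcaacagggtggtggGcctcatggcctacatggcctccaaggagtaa
Gm12182 (chr11:48734554-48734603, minus strand): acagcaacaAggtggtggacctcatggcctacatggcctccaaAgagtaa
Eno1 (chr4:150248506-150248555, plus strand, exon 12 of 12): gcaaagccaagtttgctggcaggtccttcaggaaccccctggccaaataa
Gm4735 (chr2:80838396-80838445, plus strand): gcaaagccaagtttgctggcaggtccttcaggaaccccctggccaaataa
Gm10359 and Gm4735 had 0 differences in this stretch, Gm8330 had 1, and Gm12182 had 2. The first 2 are shown as copies that 50-base tags cannot tell from their gene here, and they held 4 and 0 counts over all libraries. Gm8330 and Gm12182 are shown as Gapdh copies with many counts (163 and 227).

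Every 50-base window in the last 500 bases of the members' annotated transcripts was searched in the genome. All windows of Gapdh and Pgam1 occurred elsewhere, as did 89.6% for Pgk1 and 75.5% for Eno1. The shares were 47.1% for Pkm, 30.9% for Ldha, 27.9% for Tpi1, 16.6% for Gpi1, and 7.51% for Aldoa. Hk2 was the member without any shared window. Among 10747 expressed genes with annotated ends, the median share was 0%, and 3.52% of genes had more than 50% of their windows elsewhere. For Gapdh a single window lay in up to 71 other places, and for Pgam1 in up to 4. With at most 1 mismatch allowed, Pkm (64.8%), Ldha (61.0%), and Tpi1 (51.3%) also passed 50%. The measured levels of Gapdh, Pgam1, Pgk1, and Eno1 are thus counts of the reads that still had 1 place, and are no measure of how abundant these mRNAs were next to Hk2 or Aldoa.

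**Figure D1:**
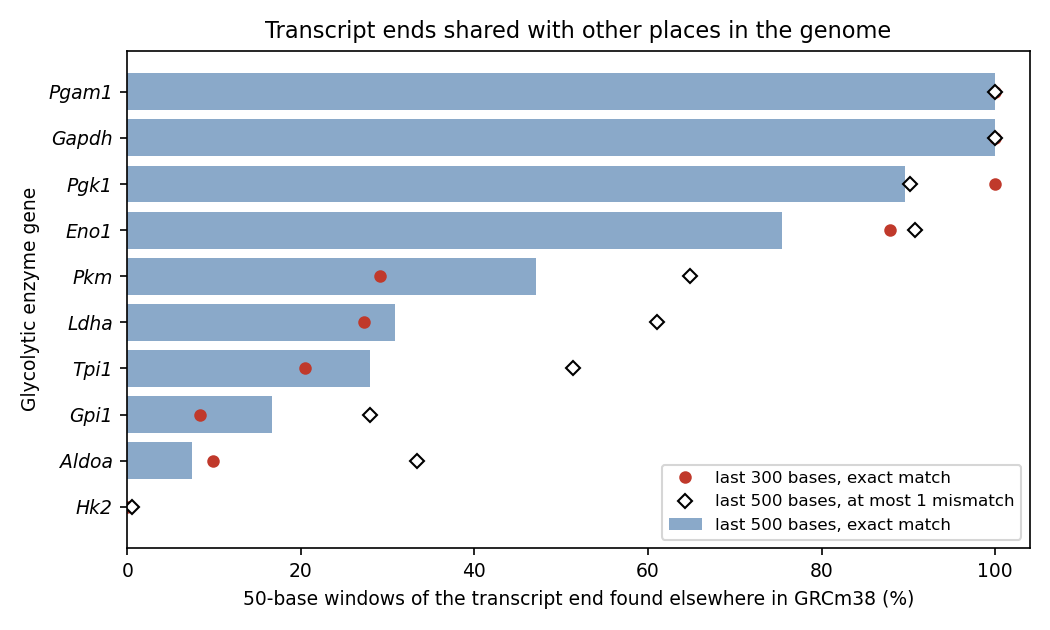
Share of 50-base windows at the transcript end of each glycolytic enzyme gene that occur elsewhere in GRCm38, in percent. Bars give exact matches over the last 500 bases, filled points the last 300 bases, and open diamonds at most 1 mismatch; Gapdh and Pgam1 reach 100% under each rule, and Hk2 stays below 1%.

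Hk2 (chr6:82725025-82774454) encodes hexokinase 2, which phosphorylates glucose in the first step. Its levels, without TMM scaling as for all levels here, were 371 and 154 CPM in input EV, 340 and 318 in input Flag-eIF4A2, 421 and 385 in RIP EV, and 449 and 867 in RIP Flag-eIF4A2. Both RIP Flag-eIF4A2 libraries lay above the other 6 on this scale. After TMM scaling this still held against input Flag-eIF4A2, but not against RIP EV or input EV replicate 1. Gpi1 (chr7:34201330-34230336), glucose-6-phosphate isomerase of the second step, stood at 133 and 82.4 CPM, 146 and 170, 65.5 and 106, and 171.5 and 146.5 CPM in the same order of groups. On this scale all 4 Flag-eIF4A2 libraries lay above all 4 EV libraries and input and RIP overlapped within each arm, whereas after TMM scaling both RIP Flag-eIF4A2 libraries lay below both of their inputs.

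Aldoa (chr7:126795234-126800751) encodes aldolase A, which cleaves the 6-carbon sugar, and had the highest CPM of the 10 in each input. It was counted at 490 and 244 CPM in input EV, 756 and 652 in input Flag-eIF4A2, 154.5 and 103 in RIP EV, and 375.5 and 313 in RIP Flag-eIF4A2. In each arm both RIP libraries were below both inputs. No gene of the phosphofructokinase step, which lies between these enzymes, is among the 10; the form with the highest CPM here was Pfkp, given with the paralogs. Tpi1 (chr6:124810586-124814296) encodes triosephosphate isomerase, which interconverts the cleavage products. Its values were 134 and 75.5 CPM, 125.5 and 175, 61.6 and 30.5, and 127 and 127 CPM, lowest in both RIP EV libraries.

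Gapdh (chr6:125161715-125166467), the dehydrogenase that yields NADH, gave 52 and 12 counts in input EV, 11 and 16 in input Flag-eIF4A2, 0 and 0 in RIP EV, and 8 and 13 in RIP Flag-eIF4A2. In CPM these were 7.15 and 3.75, 2.38 and 2.57, 0 and 0, and 0.714 and 1.30. Gapdh is widely used as a reference gene for its high expression, yet its mean CPM in input EV had rank 8949 among the genes that passed the filter. Pgk1 (chrX:106187100-106203699) encodes phosphoglycerate kinase, which makes the first ATP, and was counted 5 and 5, 6 and 31, 0 and 0, and 26 and 5 times. Pgam1 (chr19:41911923-41918660), phosphoglycerate mutase, had 41 and 8, 16 and 47, 0 and 14, and 53 and 95 counts. For Pgk1 all groups overlapped except RIP EV, which was at 0. For Pgam1 only the 2 precipitates did not overlap, by a margin of 4.73 over 4.18 CPM that was lost after TMM scaling.

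Eno1 (chr4:150236721-150248879) encodes enolase 1, which forms phosphoenolpyruvate. Its levels were 59.4 and 49.6 CPM in input EV, 43.3 and 28.4 in input Flag-eIF4A2, 30.3 and 43.6 in RIP EV, and 12.8 and 3.41 in RIP Flag-eIF4A2. Eno1 was the member whose RIP Flag-eIF4A2 libraries both lay below all 6 others. Pkm (chr9:59656368-59679375), pyruvate kinase of muscle and most proliferating cells, stood at 394 and 170 CPM, 476 and 507, 145 and 300.1, and 520.0 and 311 CPM. Its Flag-eIF4A2 inputs lay above its EV inputs, and on unscaled CPM input and RIP overlapped within each arm. Ldha (chr7:46841475-46855627), lactate dehydrogenase A, stood at 299.6 and 138, 350.2 and 359, 88.5 and 126.5, and 281.5 and 276 CPM. For Ldha the RIP EV libraries were the lowest, and both RIP Flag-eIF4A2 libraries lay below both inputs of the same cells.

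**Figure D2:**
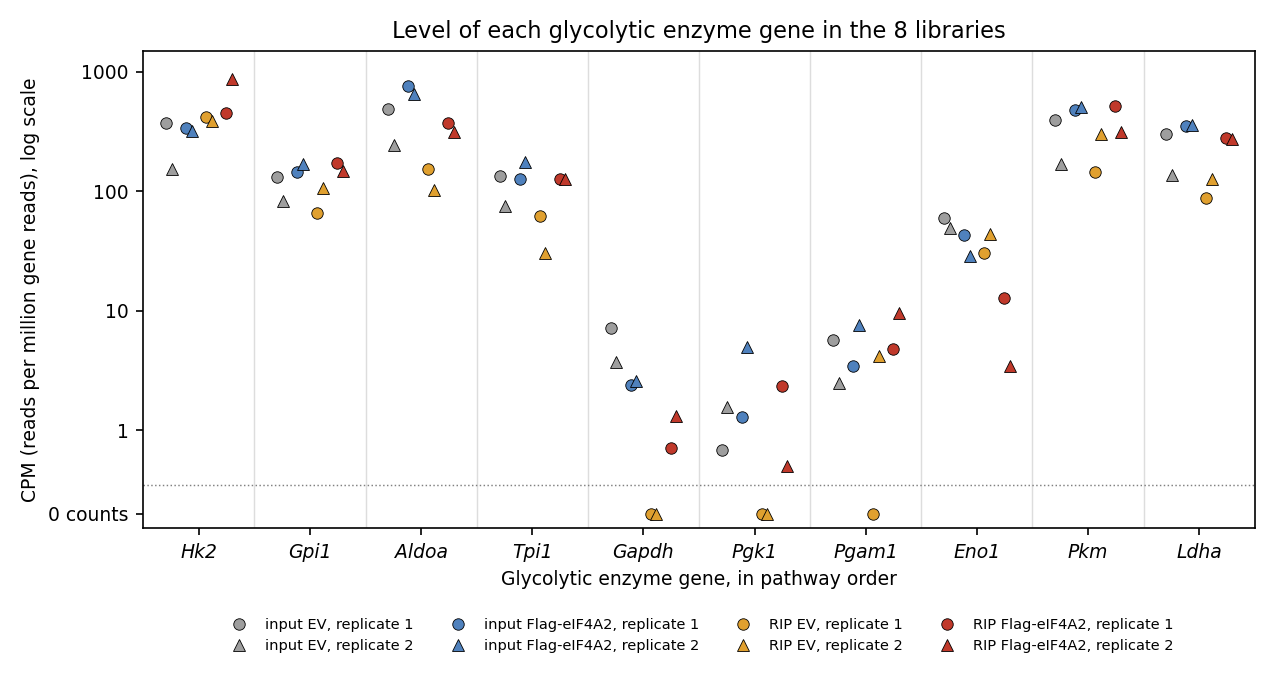
Level of each of the 10 glycolytic enzyme genes in the 8 libraries, in CPM on a log scale. Each point is 1 library, colours are groups, and points under the dotted line are libraries with 0 counts; Eno1 in RIP Flag-eIF4A2 (12.8 and 3.41 CPM) sits below the other 6 libraries, and Gapdh and Pgk1 are at 0 in RIP EV.

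In input Flag-eIF4A2 the order of mean levels was Aldoa (704 ± 73.6 CPM, SD, n = 2), Pkm (492 ± 22.0), Ldha (355 ± 6.36), Hk2 (329 ± 15.8), Gpi1 (158 ± 17.0), Tpi1 (150 ± 35.2), Eno1 (35.9 ± 10.5), Pgam1 (5.51 ± 2.89), Pgk1 (3.14 ± 2.60), and Gapdh (2.48 ± 0.134). Neighbours within their spread were Gpi1 and Tpi1, Pgam1 and Pgk1, and Pgk1 and Gapdh, and Ldha and Hk2 lay apart by little more than their SDs. In input EV the 4 leading members Aldoa (367 ± 174), Pkm (282 ± 158.5), Hk2 (262.5 ± 154), and Ldha (219 ± 114.5) all lay within each other's spread. Hk2 led both precipitates, at 403 ± 25.5 CPM in RIP EV and 658 ± 295 CPM in RIP Flag-eIF4A2, where Pkm (415.5 ± 148) was within its spread. Since the members differ in how much of their 3′ end occurs elsewhere, from 0% for Hk2 to 100% for Gapdh and Pgam1, this order of CPM is no order of mRNA abundance.

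Together the 10 members took 0.141 ± 0.0689% of gene reads in input EV (SD, n = 2), 0.224 ± 0.00141% in input Flag-eIF4A2, 0.103 ± 0.00945% in RIP EV, and 0.2001 ± 0.00785% in RIP Flag-eIF4A2. The single libraries of input EV were at 0.190% and 0.0921%, so replicate 2 lay at the level of RIP EV and replicate 1 near that of RIP Flag-eIF4A2. Replicate 2 of input EV also had the lowest value of each of Hk2, Gpi1, Aldoa, Tpi1, Pkm, and Ldha among the 4 inputs.

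Copies of the members were looked for among the annotated genes of the table, as transcripts with at least 200 aligned bases at 95% identity or more at another locus. There were 105, of which 102 are annotated as pseudogenes and 86 had counts. Gapdh alone had 90 copies, and the other members between 0 and 4 each. In input EV, 86.6% and 92.0% of all counts on Gapdh and its copies were on copies, and in input Flag-eIF4A2 96.6% and 96.7%. No single copy dominated in the inputs: Gm12182 led in 3 of the 4 with 41, 22, and 70 counts and Gm8330 in the fourth with 40 counts, while 40 to 58 copies had counts in each input. In RIP Flag-eIF4A2, 61 and 42 copies had counts. In RIP EV 1 copy was counted in replicate 1 (Gm11185, 37 counts) and 5 in replicate 2, of which Gm8349 held 92 of 125 counts. These 2 copies had 3 and 4 counts in all the other libraries together.

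With copies added, Gapdh stood at 53.4 and 46.5 CPM in input EV, 69.5 and 78.5 in input Flag-eIF4A2, 18.1 and 37.4 in RIP EV, and 30.4 and 23.2 in RIP Flag-eIF4A2. The RIP Flag-eIF4A2 libraries then fell inside the range of RIP EV. For every other member the copies held 0 to 6 counts per library.

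**Figure D3:**
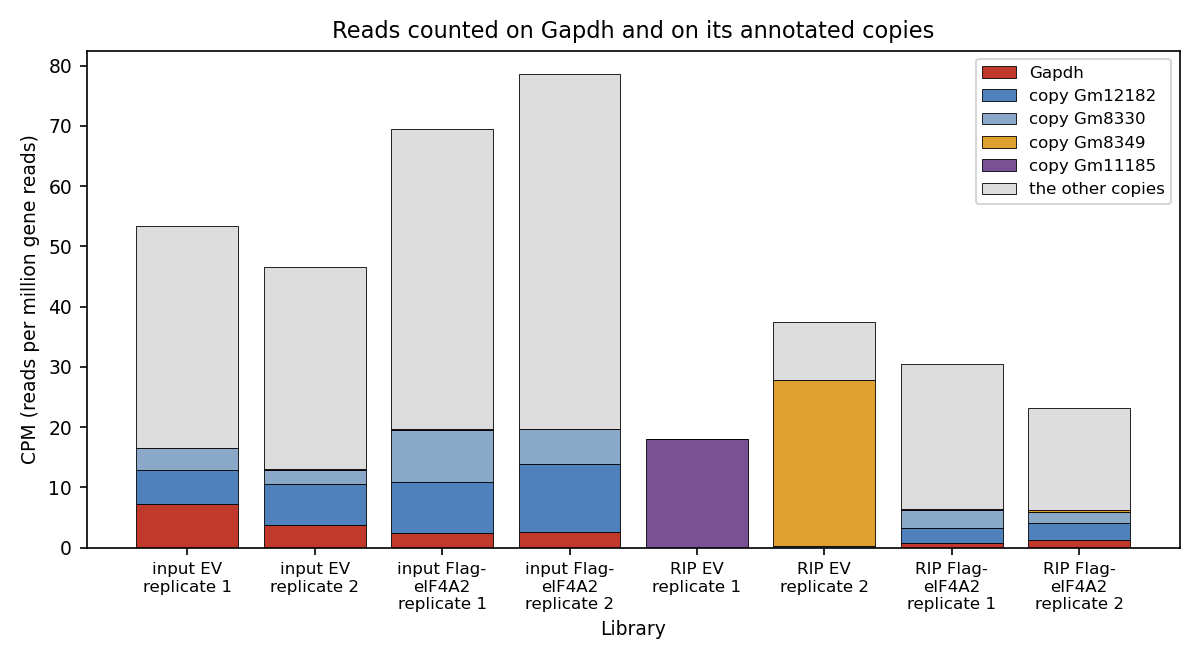
Reads counted on Gapdh and on its 90 annotated copies in each library, in CPM, stacked. Red is Gapdh itself, which is 0 in both RIP EV libraries; in RIP EV a single copy holds 37 of 37 counts (Gm11185) or 92 of 125 counts (Gm8349), while the other libraries spread over at least 40 copies.

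Whether the enzymes' mRNAs came down with Flag-eIF4A2 was first read against the input of the same cells. None of the 9 tested members passed the threshold in the edgeR quasi-likelihood fit of all 8 libraries (adjusted p under 0.05). Over all genes this fit called 0% higher and 0.0558% lower (6 of 10754 genes), and without adjustment 331 higher and 632 lower genes had a p under 0.05, with 3 members among the lower ones. The members' median log2 fold change was -0.55, against 0.02 over all genes (0.32 on library size alone), and 7 of 9 were below 0. After TMM scaling, Gpi1, Aldoa, Tpi1, Gapdh, Eno1, Pkm, and Ldha had both RIP libraries below both inputs, against 30.0% of all genes, and Hk2 had both above, against 31.7%. On unscaled CPM 4 of these 7 remained below (Aldoa, Gapdh, Eno1, and Ldha).

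Eno1 had the largest fitted decrease, with a log2 fold change of -2.47 ± 0.78 (SE; adjusted p = 0.419, edgeR), and 1.83% of all genes had a lower value. Aldoa stood at -1.34 ± 0.44 (adjusted p = 0.427, edgeR) and Gapdh at -1.58 ± 0.58 (adjusted p = 0.512, edgeR). Hk2 was the member farthest in the other direction, at 0.70 ± 0.53 (adjusted p = 0.888, edgeR), with replicate 2 at 867 CPM and replicate 1 at 449 CPM. The remaining 5 were between -0.65 (Ldha) and 0.08 (Pgam1).

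This fit shares 1 estimate of the spread with the RIP EV libraries. When edgeR was fitted to the 4 libraries of this comparison, Aldoa (adjusted p = 0.0129) and Eno1 (adjusted p = 0.0153) were called lower, 2 of 9 members, where 8.46% of all genes were called lower and 8.44% higher. Both were also called lower without RIP EV replicate 1 (adjusted p = 0.0297 and 0.0069, edgeR), where 7.86% of all genes were called lower and 7.25% higher. Without RIP EV replicate 2 they were again called lower (adjusted p = 0.0328 and 0.00677, edgeR), with 7.23% of all genes lower and 8.07% higher. DESeq2 on 8 libraries called Eno1 lower (adjusted p = 0.0149) and not Aldoa (adjusted p = 0.111), with 4.00% of all genes lower and 2.55% higher. The values of Eno1 rest on the windows of its end that are unique, and with its copies added the fitted change was -2.39 ± 0.74 (adjusted p = 0.414, edgeR, 8 libraries).

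The second question was whether the precipitates held more of these mRNAs than the mock precipitates of EV cells. Against RIP EV, 1 of 9 members was called higher, Gapdh, and none lower, while 24.8% of all genes were called higher and 5.46% lower. The median log2 fold change of the members was 1.10, against 0.64 over all genes (0.91 on library size alone), and 0.86 with Gapdh set to its lower bound. Both comparisons with RIP use the same RIP Flag-eIF4A2 libraries, and all comparisons with RIP EV share that pair. In simulated counts with the measured spread of each group, this fit called many unchanged genes against RIP EV and none of the changed genes against input. Each simulated gene otherwise had 1 mean in all groups, and each group had 1 spread for all genes. The planted changes were all smaller than that of mt-Cytb, which the fit of the measured counts did call against input (log2 fold change -7.62, adjusted p = 0.0232, edgeR). The simulation therefore does not cover changes of that size. A call or a missing call of this fit is to be read with that error.

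The Gapdh call rests on 0 counts in RIP EV. With a floor of 3 counts over both RIP EV libraries, 21 counts in RIP Flag-eIF4A2 gave a level at least 1.81-fold higher (adjusted p = 0.0441 in the edgeR fit), or 1.12-fold without RIP EV replicate 1. Without RIP EV replicate 2 that floor lay above the RIP Flag-eIF4A2 level and no fold could be given. With copies added the log2 fold change was -0.33 ± 0.54 (adjusted p = 0.721, edgeR), the opposite direction. The call was also lost when any 1 library of RIP EV, input Flag-eIF4A2, or RIP Flag-eIF4A2 was left out, in fits that called between 2050 and 6248 of all genes higher.

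Eno1 was again the exception among members, at a log2 fold change of -2.48 ± 0.78 with an adjusted p of 0.0543 in edgeR, and 4.65% of all genes lay lower. It was called lower by DESeq2 on 8 libraries (adjusted p = 0.00231), without RIP EV replicate 1 (adjusted p = 0.00146, edgeR), and without RIP EV replicate 2 (adjusted p = 0.00601, edgeR), where 10.5%, 18.2%, and 16.2% of all genes were called lower. With edgeR on the 4 libraries its adjusted p was 0.281. Both RIP Flag-eIF4A2 libraries were below both RIP EV libraries, as for 14.9% of all genes. A list of nuclear and mitochondrial RNAs (Meg3, Rian, Malat1, mt-Cytb, mt-Nd4, and mt-Co1) moved the same way, with 6 of 6 called lower and summed levels of 294 and 449 CPM in RIP Flag-eIF4A2 against 5724 to 16840 CPM in the other libraries. Its part in the value of Eno1 was not tested.

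The members Aldoa (1.13 ± 0.44, adjusted p = 0.104, edgeR), Tpi1 (1.18 ± 0.52, adjusted p = 0.149, edgeR), and Ldha (1.10 ± 0.44, adjusted p = 0.115, edgeR) did not pass, although each had both RIP Flag-eIF4A2 values above both RIP EV values. This held for 5 of 9 members after TMM scaling (these 3, Gpi1, and Gapdh), against 46.7% of all genes. Hk2, Gpi1, Pgam1, and Pkm were at 0.43, 0.61, 1.40, and 0.62. The calls changed with the RIP EV library kept. Without RIP EV replicate 1 edgeR called Aldoa and Tpi1 higher, and 41.5% of all genes. Without RIP EV replicate 2 it called Gpi1, Pgam1, Pkm, and Ldha higher, and 58.1% of all genes, and the median of all genes was 3.07. Without input EV replicate 1 or replicate 2 Ldha was called beside Gapdh, where 21.7% and 21.8% of all genes were called higher and 3.71% lower in both. DESeq2 on 8 libraries called no member higher, with 30.4% of all genes. With the 4 libraries of the comparison alone, edgeR called no gene, though an unadjusted p under 0.05 was reached by 2578 higher and 571 lower genes, and DESeq2 called 833 and 533, none of them a member.

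**Figure D4:**
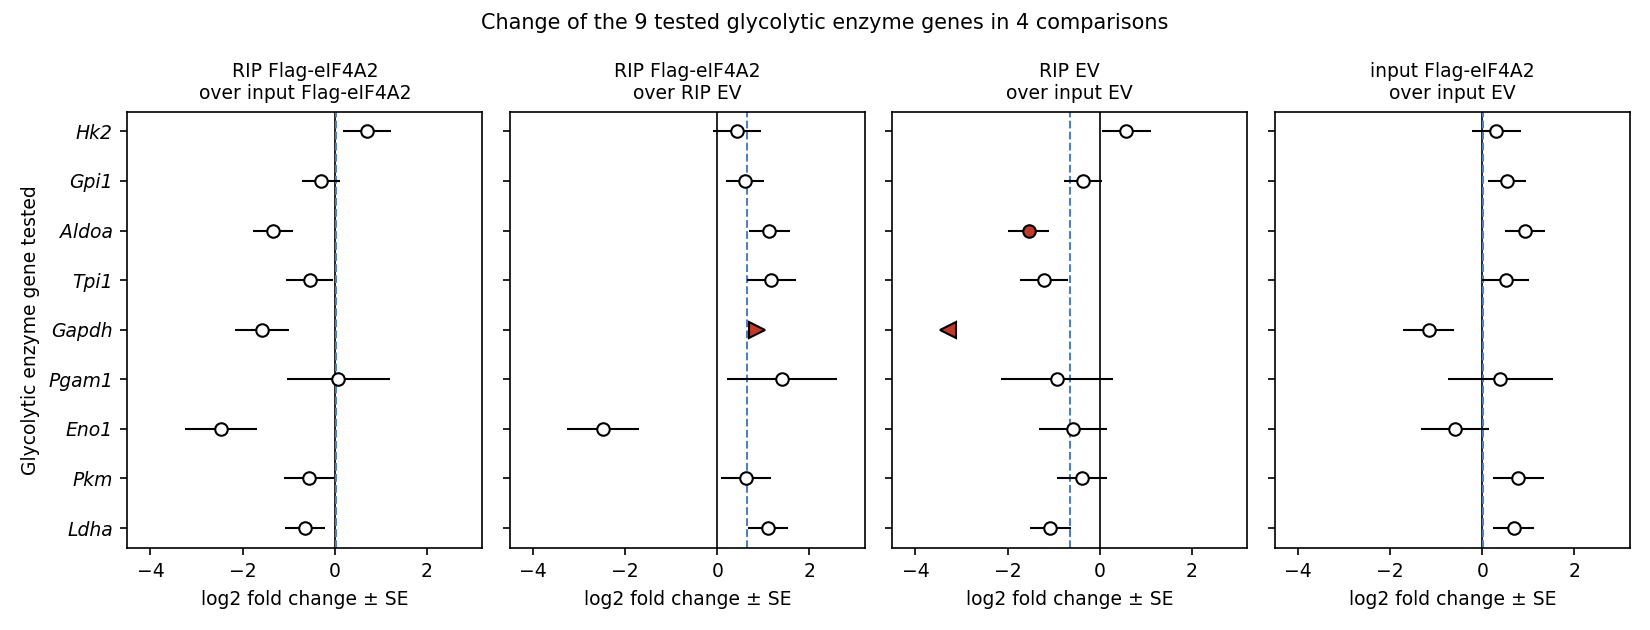
Log2 fold change with standard error of the 9 tested glycolytic enzyme genes in 4 comparisons, from the edgeR fit of 8 libraries; filled symbols passed an adjusted p of 0.05 and the dashed line is the median of all genes tested. Triangles give Gapdh at its bound where RIP EV has 0 counts; Eno1 lies at -2.47 against input and at -2.48 against RIP EV, far to the left of the other members in the second panel.

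In the mock precipitation, RIP EV against input EV, Aldoa (-1.54 ± 0.44, adjusted p = 0.0393, edgeR) and Gapdh (adjusted p = 0.00816, edgeR) were called lower, 2 of 9 members, where 26.3% of all genes were called lower and 4.50% higher. For Gapdh the level was at least 9.79-fold lower by the same floor, or 6.08-fold without RIP EV replicate 1 and 3.71-fold without RIP EV replicate 2. With copies added, Gapdh stood at -0.87 ± 0.54 (adjusted p = 0.296, edgeR) and was no longer called. The members' median was -0.94, against -0.64 over all genes. Aldoa was lower than input in both arms, by 1.54 on the log2 scale in EV cells and by 1.34 in Flag-eIF4A2 cells, and the test of the difference between these gave 0.20 ± 0.61 (adjusted p = 0.907, edgeR). The Aldoa call was lost without input EV replicate 1, without either input Flag-eIF4A2 library, and without either RIP Flag-eIF4A2 library, in fits that called 2138 to 2531 of all genes lower. With edgeR on the 4 libraries neither Aldoa nor Gapdh passed, nor did any other gene (an unadjusted p under 0.05 had 460 higher and 2715 lower genes, and DESeq2 called 319 and 503). Aldoa, Tpi1, Gapdh, Eno1, and Ldha had both RIP EV libraries below both inputs, 5 of 9, where 45.5% of all genes did, and no member had both above, where 14.5% did.

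Between the inputs edgeR called no member and no other gene in either direction. An unadjusted p under 0.05 was reached by 75 genes that were higher and by 59 that were lower, none of them a member. DESeq2 on the 8 libraries called 0.121% of all genes higher and 0.0279% lower, again without a member. The members ranged from -1.17 (Gapdh) to 0.93 (Aldoa, adjusted p = 1.0, edgeR). Gpi1, Aldoa, Pkm, and Ldha had both Flag-eIF4A2 inputs above both EV inputs, 4 of 9, where 19.9% of all genes did. Gapdh and Eno1 had both below, where 18.1% did.

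The change from input to RIP was also compared between the arms. Of 9 members 1 was called, Gapdh (6.63 ± 1.59 on the log2 scale, adjusted p = 0.0368, edgeR), where 19.2% of all genes were called higher and 2.10% lower. This fitted value rests on the 0 counts of RIP EV and is no bound. With copies added it was -0.90 ± 0.76 (adjusted p = 0.541, edgeR). Eno1 had a difference of -1.88 ± 1.05 (adjusted p = 0.311, edgeR), so its change in the Flag-eIF4A2 arm was not shown to differ from that in EV cells by this fit. Without RIP EV replicate 1 it was called (-2.08 ± 0.73, adjusted p = 0.0327, edgeR), as were 11.8% of all genes as lower and 35.9% as higher. Without input EV replicate 1, either input Flag-eIF4A2 library, or either RIP Flag-eIF4A2 library edgeR called no gene for this difference, Gapdh included, though 2372 to 2487 higher and 252 to 403 lower genes had an unadjusted p under 0.05. Gapdh was also not called without RIP EV replicate 2, where 54.0% of all genes were called higher and 12.4% lower.

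Of 20 paralogs and related enzymes of the same steps, 11 passed the filter. Hk1, another hexokinase, was at 33.6 and 23.4 CPM in input EV, 84.2 and 145.5 in input Flag-eIF4A2, 0 and 38.3 in RIP EV, and 126 and 102 in RIP Flag-eIF4A2. Ldhb, the heart type subunit of lactate dehydrogenase, was at 74.0 and 79.6, 63.4 and 105, 1.47 and 57.1, and 150.1 and 133 CPM. In both genes 1 RIP EV library was near 0 and the other was not. Aldoc, Eno3, Eno2, and Pgam2 had mean levels of 18.6, 25.7, 3.75, and 6.001 CPM in input EV and 19.2, 21.7, 10.9, and 3.57 CPM in RIP Flag-eIF4A2. Gapdhs, Pgk2, and Hk3 had a mean of 0 CPM in all 4 groups.

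Against RIP EV, 2 of the 11 were called higher and none lower, where 24.8% of all genes were called higher and 5.46% lower. As for every list gene called against or in RIP EV below, none of these calls was made by edgeR on the 4 libraries of the comparison, which called no gene. The 2 were Pfkm, a phosphofructokinase of the committing step (0 counts in RIP EV, at least 18.8-fold higher), and Bpgm, which makes 2,3-bisphosphoglycerate (3 counts in RIP EV and 800 in RIP Flag-eIF4A2, a ratio of pooled CPM of 67.9 with an exact counting interval of 23.1 to 330.0). The same genes were called lower in RIP EV than in input EV, as were 26.3% of all genes, at least 7.21-fold for Pfkm. Adpgk, an ADP-dependent glucokinase, was called higher in RIP EV than in its input (2.63 ± 0.66, adjusted p = 0.0239, edgeR), at 52.3 and 93.9 CPM against 11.97 and 11.2. In that comparison 4.50% of all genes were called higher. Pfkp, the platelet type phosphofructokinase, was at 437 and 568 CPM in RIP Flag-eIF4A2, 138 and 155 in its input, 159 and 165 in RIP EV, and 82.7 and 38.7 in input EV. It passed in no comparison of the edgeR fit of 8 libraries, with an adjusted p of 0.388 against input and of 0.0611 against RIP EV.

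Among 16 genes of glucose and lactate transport and of regulation, 13 were tested. Against RIP EV, 3 of 13 were called higher, beside 24.8% of all genes. They were Pfkfb1 and Pfkfb4, which set the level of fructose 2,6-bisphosphate, and Pdk2, a kinase that restrains pyruvate dehydrogenase. All 3 had 0 counts in RIP EV, with levels at least 7.13-fold, 12-fold, and 5.95-fold higher in RIP Flag-eIF4A2. These 3 were also called lower in RIP EV than in its input, with Pdk1 (-1.52 ± 0.46, adjusted p = 0.0483, edgeR). That is 4 of 13, where 26.3% of all genes were called lower. The glucose importers Slc2a1 and Slc2a3 were not called in any comparison by the edgeR fit of 8 libraries. Neither were Slc16a1 and Slc16a3, which carry lactate.

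Of 6 tested genes of pyruvate entry into mitochondria, Mpc2, a subunit of the mitochondrial pyruvate carrier (0 counts in RIP EV, at least 54.9-fold higher), and Dld, the E3 subunit of pyruvate dehydrogenase (4.43 ± 1.31, adjusted p = 0.045, edgeR), were called higher against RIP EV, beside 24.8% of all genes. Of 5 genes of the serine branch, which leaves glycolysis at 3-phosphoglycerate, 1 was, Phgdh (at least 14.5-fold). Of 16 citric acid cycle genes, 1 was called higher against RIP EV, Sdhc (1.25 ± 0.35, adjusted p = 0.0387, edgeR). Sdhc and Suclg1 were called lower in RIP EV than in input EV, as were Mpc2, Phgdh, and 26.3% of all genes. All of these bounds move with the RIP EV library kept: without RIP EV replicate 2 they were 7.14-fold for Pfkm, 2.70-fold for Pfkfb1, 4.54-fold for Pfkfb4, 2.26-fold for Pdk2, 20.8-fold for Mpc2, and 5.49-fold for Phgdh. None of the 7 genes of the pentose phosphate pathway was called by the edgeR fit of 8 libraries in any comparison. The same held for the 3 tested genes of gluconeogenesis. At an unadjusted p under 0.05, 2 pentose phosphate genes, 2 citric acid cycle genes, and 1 serine branch gene were lower in RIP Flag-eIF4A2 than in its input. In the same comparison 1 paralog was higher, and of all 10754 genes 632 were lower and 331 higher. Against input, no gene of these 7 metabolic lists was called in the Flag-eIF4A2 arm by the fit of 8 libraries. That fit called 0% of all genes higher and 0.0558% lower. For these lists the edgeR fit of the 4 libraries of that comparison is not given. It called 8.44% of all genes higher and 8.46% lower. The medians against input were 0.27 for the paralogs, -0.37 for transport and regulation, 0.37 for pyruvate entry, -0.75 for the pentose phosphate pathway, 0.45 for gluconeogenesis, -0.18 for the serine branch, and -0.29 for the citric acid cycle, around the -0.55 of the glycolytic enzymes and the 0.02 of all genes.

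The genes whose level ran most like the members' mean log2(CPM + 1) over the 8 libraries were L1td1 (Pearson r = 0.97), Ap1s3 (r = 0.97), and 4930526A20Rik (r = 0.96). L1td1 is an RNA-binding protein of ESCs, counted at 937 and 469 CPM in input EV, 866 and 781 in input Flag-eIF4A2, 185 and 356 in RIP EV, and 529.5 and 563 in RIP Flag-eIF4A2. As in the members' mean, the RIP EV pair was lowest and input EV replicate 2 lay below the other inputs. These are descriptions over 8 libraries that share their groups.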

How the data were processed

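RNA of 4 inputs and 4 anti-Flag precipitates was sequenced. Per the paper's methods, the authors made QuantSeq libraries, trimmed them (bbduk), aligned reads with STAR (version 2.5.3a) against mm10, used HTSeq-count (version 0.11.2), and deposited raw counts per gene. No source used here gives the annotation or the strandedness of the counting, so antisense and overlapping genes are uncertain. The 5 summary lines that name no gene were left out, so that 19.9% to 68.15% of a library's reads in the table were used. Of 52550 identifiers, 52403 matched GENCODE M21. Counts of all 8 libraries were fitted with edgeR (version 4.0.16, R version 4.3.3; TMM, quasi-likelihood) on 10754 genes with a CPM of at least 1 in the 4 inputs, with Benjamini-Hochberg adjustment and a threshold of 0.05. SEs are the log2 fold change over the root of the F statistic. DESeq2 (version 1.42.0), other scalings, filters, a replicate block, and leaving out each library were alternatives. Windows of 50 bases were matched exactly to GRCm38 on both strands, outside the gene's own span. Copies came from blastn (BLAST version 2.17.0). The fits and the exact window search were tested on simulated data. The search found every planted window with an exact match and, by design, none of a planted copy with 1 changed base. The search with at most 1 mismatch was not part of this test. At the measured spread, the shared fit made many false calls against RIP EV and recovered none of the planted changes against input. A count of 0 was bounded at 3 counts, which covers counting error only. Members and lists were chosen with earlier results of these data known. All 10 members are named; other listed genes are named where called, at most 5 a list and comparison, as are the 2 most abundant paralogs of a step, the 3 genes most alike, and copies where they hold over 1% of counts, of which 46 Gapdh copies qualified and the leading ones are given. Glucose and lactate transporters, Hk3, Gm10359, and Gm4735 were named after their values were seen. A sequence stretch of 1 member is not reported here.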

Additional observations from a re-analysis of the deposited data

Results flagged for a closer look

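The edgeR fit of 8 libraries called the change from input to RIP different between Flag-eIF4A2 and EV cells for 1 glycolytic enzyme. It called 16 other listed genes as well. Over all genes it called 19.2% higher and 2.10% lower, and these calls are to be read with the error of this fit given above. The fitted differences (log2, Flag-eIF4A2 minus EV) were 6.63 for Gapdh, 7.92 for Pfkm, 5.90 for Bpgm, 6.55 for Pfkfb1, 7.34 for Pfkfb4, 6.96 for Pdk2, 10.99 for Mpc2, and 7.99 for Phgdh. All of these had 0 to 3 counts in the RIP EV pair, so the values depend on how the fit treats 0 counts and are no bounds. Among stem cell markers, the values were 3.31 for Dppa5a and, with 0 counts in RIP EV and so again no bounds, 10.22 for Pou5f1 and 8.17 for Otx2. Among nuclear and mitochondrial RNAs, they were -4.20 for Meg3, -4.55 for Rian, -5.43 for Malat1, -4.90 for mt-Cytb, -4.70 for mt-Nd4, and -5.23 for mt-Co1. With copies added, the value of Gapdh was -0.90. For Phgdh 60.5% of the end windows occurred elsewhere, and its copies were not looked for.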

How the results depend on the processing

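Over the alternatives, the 45 member values kept direction and side of the threshold in 663 instances, gained a call in 29, lost one in 31, and turned direction in 24; the causes were not tested. Against input Flag-eIF4A2, the members called lower (0) became 2 with edgeR or DESeq2 on the 4 libraries, 1 with DESeq2 on 8 libraries, and 0 to 2 when each library was left out. Against RIP EV, the members called higher (1) became 0 with edgeR or DESeq2 on the 4 libraries, DESeq2 on 8 libraries, filterByExpr, or copies added, 3 on library size alone (Aldoa, Gapdh, and Ldha), and 0 to 4 by leaving out libraries; without a filter the called member was Aldoa. Those called lower (0) became 1 with DESeq2 on 8 libraries and 0 to 1 by leaving out libraries. In RIP EV against input EV, the members called lower (2) became 0 with either tool on the 4 libraries, 1 with copies added, and 1 to 4 by leaving out libraries. For the difference between arms, the members called higher (1) became 0 with filterByExpr, no filter, or copies added, and 0 to 1 by leaving out libraries, as did those called lower (0). Leaving out the libraries of the other groups was added after seeing the data, and a group left with 1 library is assumed to vary like the others.

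Same-numbered replicates showed no shared deviation (r = -0.0694 to 0.116). The spread between libraries can hide a pairing, so whether the numbers pair the samples stays unknown. With the replicate block, the members called higher against RIP EV and in the difference between arms became 0 and 0, and other member counts did not change.

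With copies added, Gapdh turned to -0.33 against RIP EV, 0.57 between the inputs, and -0.90 in the difference between arms. On library size alone, Gpi1 turned to 0.00846 against input, and Pkm to 0.0981 in the difference. By leaving out libraries, Pgam1 ranged from -0.50 to 0.72 (turning also at -0.35) against input and from -0.24 to 1.22 (also -0.10) between the inputs. Hk2 ranged from -0.0255 to 0.96 against RIP EV, from -0.24 to 1.19 between the inputs, and from -0.76 to 0.67 (also -0.34) in the difference. In RIP EV against input EV, Gpi1 ranged from -0.79 to 0.12, and Pkm from -1.04 to 0.45 (also 0.0152). In the difference, Gpi1 ranged from -0.42 to 0.53 (also -0.0181 and -0.21), Aldoa from -0.49 to 0.67, Pkm from -0.999 to 0.53 (also 0.37 and 0.26), and Ldha from -0.36 to 0.92.

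As percent of uniquely aligned reads, the 10 members took 0.100, 0.179, 0.0418, and 0.188 in input EV, input Flag-eIF4A2, RIP EV, and RIP Flag-eIF4A2. With copies added, input Flag-eIF4A2 was at 0.231%. With copies at 98% identity or more, copies held 0.736%, 0.762%, 1.39%, and 0.359% of member and copy counts in the same order. With at most 1 mismatch, 7 members had over 50% of their windows elsewhere, against 4 with exact matches. Over all genes, the other fits of all libraries or of 4 libraries called 0 to 997 higher and 2 to 1098 lower against input, 0 to 3790 and 0 to 1155 against RIP EV, 0 to 1075 and 0 to 3568 in RIP EV against input EV, 0 to 13 and 0 to 5 between the inputs, and 1604 to 2631 and 134 to 608 for the difference. Leaving out each library gave 0 to 868 and 0 to 845, 2050 to 6248 and 136 to 1955, 90 to 1904 and 2136 to 6482, 0 and 0, and 0 to 5806 and 0 to 1337. Gapdh, Pgk1, and Pgam1 had 0 to 95 counts per library, and their changes carry the counting error of such counts.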
